A study of Mus musculus with 6 samples.

Results

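The 7 genes described here encode the MHC class II antigen-presenting machinery of the mouse, and the question was where outside immune cells their RNA was found in the retina. They are H2-Ab1 and H2-Aa, the beta and alpha chains of the I-A molecule, H2-Eb1, the beta chain of the I-E molecule, Cd74, the invariant chain, H2-DMa and H2-DMb1, the chains of the peptide editor H2-M, and Ciita, the master regulator of class II transcription. They were taken by symbol, as 7 of the 31053 genes in the deposited tables, and 1192 of the 38569 cells kept held at least 1 of their unique molecular identifiers (UMIs, each standing for 1 captured RNA molecule). Of these cells, 813 lay outside the immune clusters. The genes were chosen by their levels in OIR and control cells, seen in earlier values of this same contrast, so all differences of the 7 genes between groups are given as descriptions, without a test.

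MHC class II molecules are surface heterodimers that show peptides from internalized proteins to CD4+ T cells. An alpha and a beta chain assemble on the invariant chain, which guides them to endosomes, where H2-M exchanges the invariant chain fragment for a peptide. Dendritic cells, B cells and macrophages carry the pathway at rest, and interferon gamma can induce it in other cells through Ciita. In the retina, microglia are the resident cells known for it.

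Oxygen-induced retinopathy (OIR) is a mouse model of ischemic retinopathy in which pups lose retinal capillaries in high oxygen and grow abnormal vessels after return to room air. The 3 OIR samples came from mice that breathed 75% oxygen between P7 and P12, followed by normoxia for 5 days, and the 3 control samples (Ctrl) from mice kept in normoxia, all killed at P17. Each sample held retinas of 2 mice, and the labels give neither strain nor genotype. The labels call the material murine retinal endothelial cells, but 25555 of the 38569 kept cells were rod-like and 195 were like vascular endothelial cells (VEC), so the samples are described here as whole retina. Immune cells were the 244 microglia-like cells and a cluster of 373 cells led by S100a9, S100a8, Igkc and Cd52, called the leukocyte cluster. In that cluster all 9 microglia markers were raised as well, 86.5% to 100% of its cells in each sample held a microglia marker UMI, and 2.38% to 9.47% held a neutrophil marker UMI, so most of its cells carried microglia marker RNA. The suffix "-like" marks names given from marker genes and holds for every cell type below.

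The samples held between 15788524 and 42606878 UMIs, and OIR 1 and Ctrl 1 were the deepest. The OIR samples and Ctrl 1 carried Y-linked RNA at 213 to 262 CPM (the usual CPM unit, a gene's UMIs scaled to the total UMIs of the same cells) and Xist below 0.5 CPM, while Ctrl 2 and Ctrl 3 held Xist at 1798 and 1998 CPM and Y-linked RNA at or near 0. Sex and group therefore cannot be told apart in Ctrl 2 and Ctrl 3, and values of Ctrl 1, the only male control, are given beside the results. Among kept cells, 322 had a barcode that was also kept in another sample, and 0 of the 813 class II-positive cells outside the immune clusters shared a barcode with an immune cell of another sample. Whether the samples came from separate dissections on separate days is not labelled, so their spread may be partly technical.

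H2-Ab1 (ENSMUSG00000073421) lies on chr17:34257689-34269419 on the plus strand of GRCm38 in GENCODE vM21, where no other gene overlaps it. H2-Aa lies at chr17:34282744-34287823 on the minus strand and H2-Eb1 at chr17:34305867-34316674 on the plus strand. H2-DMb1 and H2-DMa lie nearby on the same chromosome, at chr17:34153072-34160230 and chr17:34119541-34139101. Ciita is on chr16:10480059-10528418, and Cd74 is on another chromosome again. Because H2-Eb1 has the near relative H2-Eb2 and H2-DMb1 has H2-DMb2, reads of these genes could have been split between copies, and H2-Eb1, H2-DMa, Cd74 and Ciita each overlap another annotated gene.

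Class II promoters are known for an X box and a Y box, bound by the RFX and NF-Y factors that recruit Ciita. RefSeq promoters (GRCm38.p6) were at hand for 4 of the 7 genes and not for H2-Ab1, Cd74 and Ciita. The 150 bases before the start site are shown for H2-Aa, the partner chain that H2-Ab1 needs, and for H2-Eb1 and H2-DMb1, whose X boxes match each other, with motif letters in capitals.
H2-Aa, chr17:34287824-34287973, minus strand: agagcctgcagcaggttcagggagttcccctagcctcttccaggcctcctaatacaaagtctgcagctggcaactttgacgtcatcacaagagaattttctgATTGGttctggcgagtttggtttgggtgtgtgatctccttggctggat
H2-Eb1, chr17:34305717-34305866, plus strand: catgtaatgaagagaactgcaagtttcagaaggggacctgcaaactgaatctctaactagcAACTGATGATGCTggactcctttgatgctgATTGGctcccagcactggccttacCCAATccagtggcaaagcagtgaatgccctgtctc
H2-DMb1, chr17:34153041-34153190, plus strand: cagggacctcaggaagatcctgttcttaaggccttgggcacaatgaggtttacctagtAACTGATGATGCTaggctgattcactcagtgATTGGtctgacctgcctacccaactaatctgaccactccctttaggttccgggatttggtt
The Y box core was searched as ATTGG on both strands, and 24.5% of the 32851 promoter windows of this length held it. The X box run AACTGATGATGCT was picked after these sequences were seen, as the longest run of 13 letters that H2-Eb1 and H2-DMb1 share, and these were the 2 windows of 32851 that held it. Neither motif was found in the windows of H2-DMa, and the X box run was not found in that of H2-Aa. Only this exact run of 13 letters was searched, so its absence does not show that a window lacks an X box. A match is a description of these letters and not evidence of binding.

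Of 1115 H2-Ab1 UMIs in named cell types, 914 (82.0%) lay outside the immune clusters, and OIR 1 gave 681 of the 1115. By count this share set H2-Ab1 apart from the class II genes other than Ciita. It is no enrichment over immune cells, as microglia and the leukocyte cluster held few UMIs of any gene. They held 2119348 and 953578 UMIs, against 57400430 in rods. Outside the immune clusters lay 15 of 127 H2-Aa UMIs (11.8%), 115 of 955 Cd74 UMIs (12.04%), 48 of 144 H2-Eb1 UMIs (33.3%), 57 of 387 H2-DMb1 UMIs (14.7%) and 184 of 775 H2-DMa UMIs (23.7%). Ciita was near its detection limit everywhere, with 12 UMIs in all samples together, 8 of them (66.7%) outside the immune clusters. The non-immune H2-Ab1 RNA came mostly from Müller glia, the radial support cells of the retina, and from bipolar cells, the interneurons that carry photoreceptor signals to the inner retina.

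In Müller glia-like cells, H2-Ab1 stood at 19.0, 18.1 and 14.5 CPM in OIR 1, 2 and 3, from 151, 62 and 48 UMIs. In the controls it stood at 3.95, 2.35 and 5.85 CPM, from 23, 6 and 10 UMIs. The lowest OIR sample lay above the highest control, and Ctrl 1 lay within the range of the other controls. Mean levels were 17.2 ± 2.35 CPM in OIR and 4.05 ± 1.75 CPM in controls (SD, n = 3 each). The difference was 1.90 on the log2(CPM + 1) scale, and the pooled UMIs gave a ratio of 4.60 with an exact 95% Poisson interval of 3.27 to 6.61 (Poisson and binomial intervals, here and below, are exact 95% intervals for counting error alone). Here fewer positive cells and less RNA per cell cannot be told apart from the sums alone, so shares of positive cells follow.

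In cone bipolar-like cells, H2-Ab1 stood at 35.3, 24.8 and 30.2 CPM in OIR 1, 2 and 3, from 236, 36 and 59 UMIs. In each control it was counted 3 times, which gave 0.315, 2.57 and 3.02 CPM. The groups did not overlap, and the male control was the lowest of all. Mean levels were 30.1 ± 5.24 CPM in OIR and 1.97 ± 1.45 CPM in controls, a difference of 3.53 (log2) and a pooled ratio of 42.5 (22.1 to 93.8). Pooling weights each sample by its UMIs, and Ctrl 1, the lowest control, held 9516519 against 1166109 and 994383 in Ctrl 2 and Ctrl 3. The pooled ratio therefore lies well above the ratio of the mean levels, and its interval leaves out the spread between samples. Against the male control alone the log2 difference was 4.55.

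In rod bipolar-like cells, H2-Ab1 stood at 29.2, 9.22 and 10.2 CPM in OIR 1, 2 and 3, from 139, 16 and 15 UMIs. The controls held 1, 1 and 0 UMIs, or 0.184, 0.778 and 0 CPM. All OIR samples lay above all controls, and OIR 1 was the highest by far. Mean levels were 16.2 ± 11.3 CPM in OIR and 0.320 ± 0.407 CPM in controls, with a log2 difference of 3.56 and a pooled ratio of 82.4 whose interval ran from 22.5 to 686. This ratio also lies above that of the mean levels, as OIR 1 held 4763486 UMIs of this type against 1734939 and 1473271 in OIR 2 and OIR 3.

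H2-Ab1 was apart between the groups in rod-like cells as well, at a far lower level. It stood there at 1.73, 0.372 and 0.383 CPM in OIR 1, 2 and 3 and at 0.183, 0.102 and 0 CPM in the controls, from 24 UMIs in OIR and 2 in controls, a pooled ratio of 9.19 (2.28 to 80.3). Among all genes that passed the filter on low counts, all OIR samples lay above all controls for 13.8% in Müller glia, 11% in cone bipolar, 11.5% in rod bipolar and 23.8% in rod cells. H2-Ab1 itself did not pass that filter in rods. In cone and rod bipolar cells it passed through its OIR counts, with 331 and 170 UMIs in OIR and 9 and 2 in controls. In Müller glia it had 261 UMIs in OIR and 39 in controls, and whether it would pass on control counts was not tested. These shares are therefore not a matched background for H2-Ab1 in rod and bipolar cells, and are not read as one in Müller glia. Of the other 6 class II genes, none passed that filter in bipolar cells, and H2-DMa passed it in Müller glia.

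**Figure D1:**
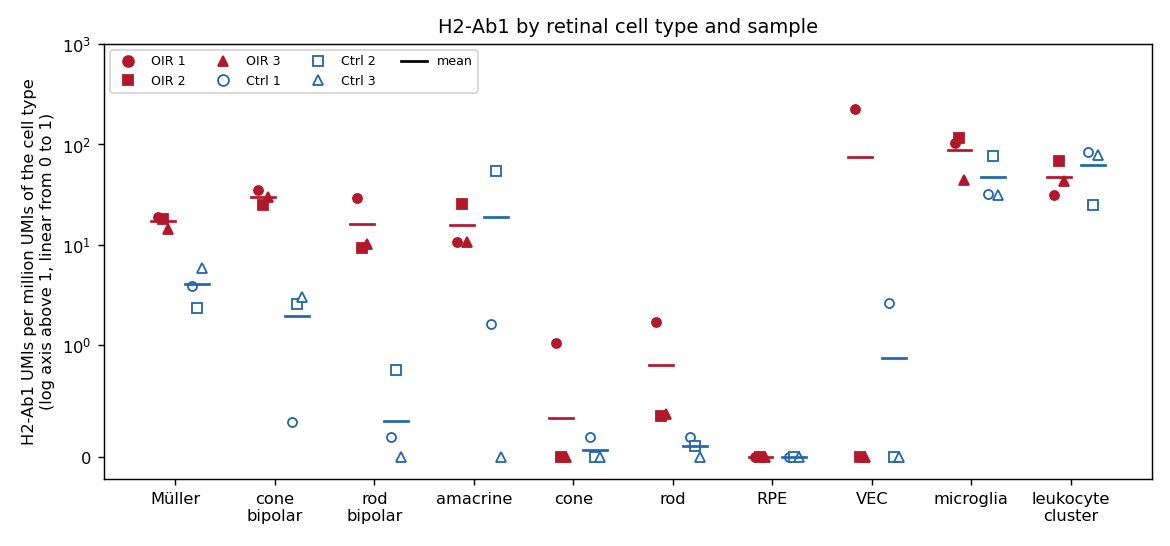
H2-Ab1 CPM in each cell type (vertical axis, log above 1 and linear from 0 to 1) in each OIR sample (filled red) and control sample (open blue), with group means as bars. OIR and control points are apart in Müller glia, cone bipolar and rod bipolar cells and, below 2 CPM, in rods, and mix in amacrine cells, microglia and the leukocyte cluster.

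Shares of H2-Ab1-positive cells gave the same order. In Müller glia-like cells, 10.4%, 7.23% and 6.53% of cells were positive in OIR 1, 2 and 3 and 2.09%, 1.85% and 3.16% in the controls. In cone bipolar-like cells the shares were 13.2%, 8.44% and 9.12% in OIR and 0.188%, 1.72% and 1.60% in controls. In rod bipolar-like cells they were 12.4%, 7.57% and 7.01% in OIR and 0.122%, 0.610% and 0% in controls, where 0 of 159 cells in Ctrl 3 allows a share of up to 1.89% (3 counts of the total). Rod-like cells, which are not known to express the gene, were taken as the background level, at 0.487%, 0.0994% and 0.0850% in OIR and 0.0431%, 0.0230% and 0% in controls. This background was itself higher in every OIR sample than in every control, and the part of free RNA in it was not tested. All OIR shares in the 3 cell types lay above the OIR rods, while the bipolar shares of Ctrl 1 were low enough to be close to its rods.

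Depth differed between these types, so the shares were also taken at equal depth. The median cell held 4764 UMIs in OIR and 6285 in control Müller glia, 7290 and 6009 in cone bipolar cells, and 8879.5 and 6861 in rod bipolar cells, against 2246 and 1613 in rods. With every cell thinned to 1000 UMIs, which left out shallower cells and kept 971, 514 and 557 OIR and 957, 301 and 261 control Müller glia, for example, positive shares in cone bipolar cells were 3.91%, 4.29% and 1.07% in OIR and 0.0636%, 0% and 0% in controls. In Müller glia the thinned shares were 2.06%, 0.973% and 0.718% in OIR and 0.314%, 0.332% and 0.766% in controls, so that OIR 3 fell below Ctrl 3. In rod bipolar cells they were 2.30%, 0.568% and 0.649% in OIR and 0%, 0.610% and 0% in controls, which also overlapped. The thinned control values rest on a few UMIs, so no change is read from them.

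The difference was seen in clusters within the types as well. In the deeper Müller glia cluster, where the sample medians lay between 7503 and 11706 UMIs, 14.4%, 14.1% and 13.4% of cells were positive in OIR 1, 2 and 3 and 3.11%, 3.28% and 4.44% in the controls. In the shallower Müller cluster, 3.04%, 2.55% and 2.01% of OIR cells were positive and 0%, 0% and 0.952% of control cells. The OIR samples of each cluster lay close together, and above the controls. Of the cone bipolar clusters, the one led by Cck and Tnnt1 held 16.3%, 11.1% and 16.1% of positive cells in OIR and 0 positive cells among 302, 18 and 26 in the controls. The clusters led by Kcng4 and by Otor overlapped between groups: in the first, OIR 2 stood at 1.41% and Ctrl 2 at 1.79%, and in the second, OIR 3 stood at 4.44% and Ctrl 3 at 5.88%.

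**Figure D2:**
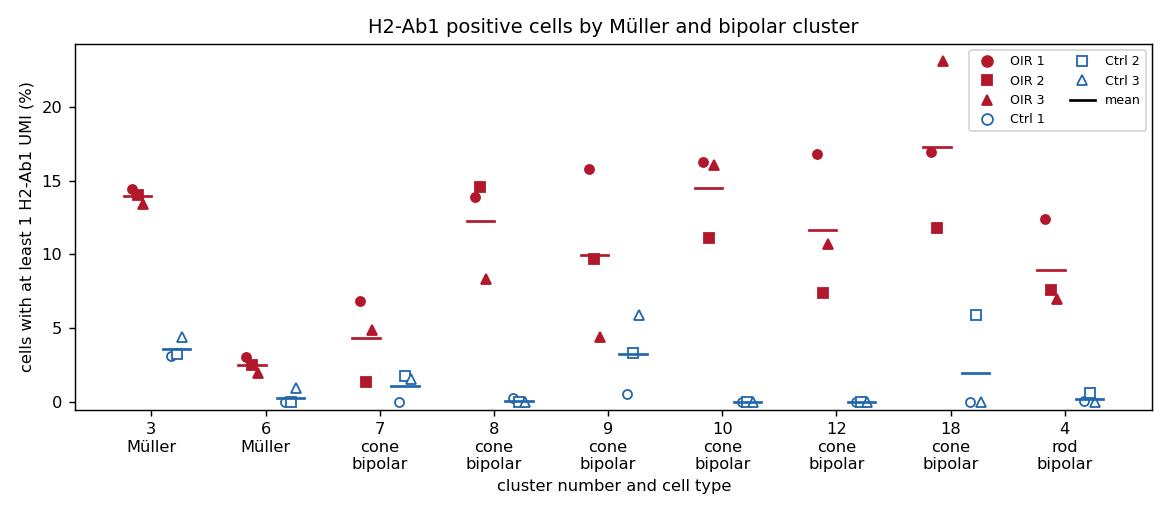
Share of cells with at least 1 H2-Ab1 UMI (vertical axis, percent) in each Müller glia, cone bipolar and rod bipolar cluster, for OIR samples (filled red) and control samples (open blue), with group means as bars. OIR and control samples overlap in clusters 7 and 9, led by Kcng4 and by Otor, and are apart in the others.

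Positive cells carried few H2-Ab1 molecules each. Among 461 positive Müller and bipolar cells in OIR, 299 held 1 H2-Ab1 UMI, 162 held at least 2 and 33 held at least 4, and the highest count was 9. Among 47 positive cells in controls, 44 held 1 UMI and 3 held at least 2. Repeated detection in a cell was thus mostly seen in OIR, at 35.1% of pooled positive cells against 6.38%, the latter from 3 cells. By sample, 120 of 303, 23 of 77 and 19 of 81 positive cells held at least 2 UMIs in OIR 1, 2 and 3. In Ctrl 1, 2 and 3 it was 2 of 25, 0 of 10 and 1 of 12. By type, 45.4% of positive OIR cone bipolar cells, 40.6% of rod bipolar cells and 23.3% of Müller glia held at least 2 UMIs.

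Leukocyte and microglia marker RNA overlapped between the groups in Müller and bipolar cells. The sum of the macrophage and dendritic list was lower in OIR in both bipolar types, where Lyve1 made most of it. The 7 leukocyte markers (Ptprc, Cd52, Coro1a, Laptm5, Cd53, Tyrobp and Fcer1g) summed to 2.12 to 9.69 CPM in OIR Müller glia and 0.785 to 12.7 CPM in controls, to 3.44 to 14.8 and 2.01 to 11.8 CPM in cone bipolar cells, and to 2.04 to 5.88 and 5.06 to 10.6 CPM in rod bipolar cells, against 8513 to 10010 CPM in OIR microglia. The 9 microglia markers stood at 24.5 to 44.0 CPM in OIR and 25.1 to 50.1 CPM in control Müller glia, at 10.2 to 24.0 and 3.43 to 43.0 CPM in cone bipolar cells and at 6.92 to 30.0 and 9.11 to 46.8 CPM in rod bipolar cells. In OIR, 4.56% of H2-Ab1-positive and 3.49% of H2-Ab1-negative Müller and bipolar cells held a leukocyte marker UMI. A microglia marker UMI was found in 19.1% of the positive and 12.03% of the negative cells, whose depths differ. The macrophage and dendritic list stood at 53.8 to 75.7 CPM in OIR and 78.4 to 95.5 CPM in control cone bipolar cells, and at 48.7 to 61.7 and 65.8 to 77.0 CPM in rod bipolar cells, with all controls above all OIR samples. Lyve1 made 583 of its 633 UMIs in OIR and 1049 of 1082 in control cone bipolar cells. In rod bipolar cells Lyve1 made 380 of 412 in OIR and 517 of 534 in controls. Zbtb46, the next most counted gene, went the other way. It had 46 UMIs in OIR and 32 in control cone bipolar cells, and 30 and 17 in rod bipolar cells. The lower sum is thus that of Lyve1 and not of the whole list. In Müller glia the list stood at 2.72 to 4.08 CPM in OIR and 1.57 to 6.35 CPM in controls, and the part of this list in the H2-Ab1 difference was not tested. B cell, T and NK cell and neutrophil markers each stood below 1.1 CPM in the 3 types in every OIR sample. Outside the immune clusters, 4527 cells held a UMI of the 7 leukocyte or 9 microglia markers. With these cells removed, the H2-Ab1 log2 differences stayed within 1 SD of those above. The macrophage and dendritic, B cell, T and NK cell and neutrophil lists were not used for this removal.

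H2-Ab1 stood almost alone among the 7 genes in these cells. In OIR Müller and bipolar cells together, H2-Ab1 gave 762 of 871 class II UMIs (87.5%), and in controls 50 of 111 (45.1%). H2-Aa, without which no I-A dimer forms, was counted 0 times in either group, which puts it at 0% to 0.483% of the H2-Aa and H2-Ab1 UMIs in OIR. Cd74, usually the most abundant transcript of the pathway, was counted 19 times, or 2.43% of the Cd74 and H2-Ab1 UMIs (1.47% to 3.77%), and H2-Eb1 6 times. Of the 461 positive OIR cells, 1 also held Cd74 and 0 held H2-Aa.

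Microglia and the leukocyte cluster had another composition. In OIR microglia, Cd74 was counted 284 times and H2-Ab1 112 times, so that Cd74 made 71.7% of the pair (67.0% to 76.1%). The 51 H2-Aa UMIs and 49 H2-Eb1 UMIs of OIR microglia all lay in 1 cell of OIR 1, which held 248 of the 934 class II UMIs, so H2-Aa was at 0 in the other microglia of OIR. In the OIR leukocyte cluster, Cd74 was counted 99 times and H2-Ab1 23 times, or 81.2% (73.1% to 87.7%). Without the cell of most class II UMIs in each sample, left out after the data were seen, Cd74 made 75.1% of the pair in microglia, 71.05% in the leukocyte cluster and 1.98% in Müller and bipolar cells. These shares lie far apart, although UMIs of 1 cell are not independent and the counting intervals are therefore too narrow.

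**Figure D3:**
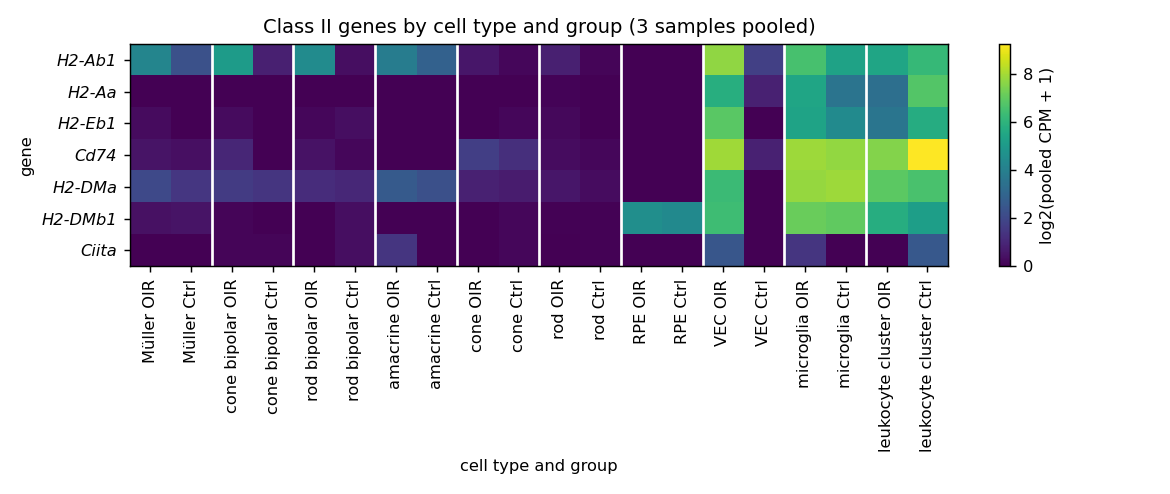
Levels of the 7 class II genes (rows) in OIR and control cells of each type (columns), as log2 of pooled CPM plus 1 (color scale). Müller and bipolar cells of OIR show H2-Ab1 with little H2-Aa or Cd74, while VEC-like cells of OIR, microglia and the leukocyte cluster show 6 or 7 of the genes when pooled, with H2-Aa in OIR microglia and in the OIR leukocyte cluster from 1 cell each.

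The H2-M chains stayed low. H2-DMa in Müller glia-like cells was counted 31, 5 and 10 times in OIR 1, 2 and 3 and 9, 3 and 6 times in controls, at 3.90, 1.46 and 3.03 CPM against 1.54, 1.18 and 3.51 CPM, and the groups overlapped. In cone bipolar-like cells it was counted 16, 1 and 4 times in OIR and 16, 1 and 3 times in controls. H2-DMb1 gave 9 UMIs in Müller glia, 1 in cone bipolar and 2 in rod bipolar cells over all samples. It was, however, the sole class II gene counted in the 236 retinal pigment epithelium (RPE)-like cells, with 4, 2 and 1 UMIs in OIR and 2, 4 and 1 in controls, which overlapped.

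Other non-immune types held little. In amacrine-like cells, the inhibitory interneurons, H2-Ab1 was counted 3, 3 and 2 times in OIR and 2, 8 and 0 times in controls, and the 8 UMIs of Ctrl 2 lay in 2 cells. Cone-like cells held 3, 0 and 0 H2-Ab1 UMIs in OIR and 1, 0 and 0 in controls, and of their 25 Cd74 UMIs, 13 lay in 1 cell of OIR 1 and 8 in 1 cell of Ctrl 1. Vascular smooth muscle cell (VSMC)-like cells, 86 in all, held H2-Eb1 at 2, 1 and 0 UMIs in OIR and 3, 2 and 0 in controls. Astrocyte-like cells held 4 H2-Ab1 UMIs in OIR 2 and 1 in Ctrl 1. No class II UMI was counted in the 285 lens-like cells.

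By mean H2-Ab1 level in OIR, the order of types was microglia (88.2 ± 38.7 CPM, SD, n = 3), VEC (74.4 ± 129 CPM, carried by OIR 1), the leukocyte cluster (47.7 ± 19.4), cone bipolar (30.1 ± 5.24), Müller glia (17.2 ± 2.35), rod bipolar (16.2 ± 11.3), amacrine (15.8 ± 8.72), astrocyte (7.90 ± 13.7), rod (0.828 ± 0.781) and cone cells (0.349 ± 0.605). Müller glia, rod bipolar and amacrine cells did not differ beyond their spread, nor did microglia and the leukocyte cluster. Cone bipolar cells stood above Müller glia in each OIR sample. In controls, the order was the leukocyte cluster (62.8 ± 32.8 CPM), microglia (47.0 ± 26.0), amacrine (18.9 ± 31.3), Müller glia (4.05 ± 1.75) and cone bipolar cells (1.97 ± 1.45), and every other type stood below 1.1 CPM on average. In microglia, H2-Ab1 stood at 103.9, 116.6 and 44.2 CPM in OIR and at 32.3, 76.9 and 31.7 CPM in controls, which overlapped. Of 112 H2-Ab1 UMIs in OIR microglia, 73 remained without the cell of most class II UMIs. Without that cell of each sample 52 remained, so the microglia level in OIR rests largely on a few cells. The share of H2-Ab1-positive microglia, however, was 23.5% to 33.3% in OIR and 10.0% to 17.65% in controls, which did not overlap. The median microglia-like cell held 10916 UMIs in OIR and 6492 in controls, and the part of depth in these shares was not tested. For how many of all genes such shares were apart in microglia is not given.

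Microglia did not take a larger share of cells in OIR beyond the spread. They made up 1.17%, 0.309% and 0.281% of kept cells in OIR 1, 2 and 3 and 1.13%, 0.372% and 0.484% in controls, a difference of -0.0758 percentage points (two-sided exact permutation test, p = 0.6, where 0.1 is the lowest that 3 samples against 3 can reach). The leukocyte cluster made up 1.57%, 0.763% and 1.04% in OIR and 1.30%, 0.521% and 0.527% in controls, a difference of 0.342 points (exact permutation test, p = 0.5).

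VEC-like cells held the whole set, but in 1 sample. OIR 1 had 25 VEC-like cells with 173 class II UMIs: 46 of H2-Ab1, 12 of H2-Aa, 26 of H2-Eb1, 53 of Cd74, 17 of H2-DMa, 18 of H2-DMb1 and 1 of Ciita. OIR 2 and OIR 3 had 2 VEC-like cells each and no class II UMI, and the 146, 4 and 16 control VEC-like cells held 4, 0 and 1 class II UMIs. The finding thus has no replicate, and the small numbers in OIR 2 and OIR 3 cannot show its presence or absence.

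Of the 173 UMIs, 162 lay in 4 cells of OIR 1, which is 16.0% of its VEC-like cells (4.54% to 36.1%). These cells held 43, 51, 25 and 43 class II UMIs and at least 5 of the 7 genes each. No VEC-like cell of Ctrl 1 reached 5 genes, and the exact interval for 0 of 146 reaches 2.495%. At 10000 UMIs or more, 4 of 9 VEC-like cells of OIR 1 and 0 of 41 of Ctrl 1 reached it.

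All 4 cells held the 9 VEC markers, with 48, 105, 30 and 84 UMIs of the tight junction gene Cldn5. Their leukocyte marker UMIs were 0, 0, 0 and 1, their microglia marker UMIs 0, 0, 1 and 2, and their B cell marker UMIs 0 in each, while 2 of them held 3 and 2 UMIs of the macrophage and dendritic list. Cd74 made 53.5% of the Cd74 and H2-Ab1 UMIs in OIR VEC-like cells, and 58.9% without the cell of most class II UMIs. The share lay above that of Müller and bipolar cells. In the 4 cells, Cd74 was counted 16, 10, 5 and 19 times and H2-Ab1 4, 16, 10 and 14 times. The share thus varied widely between cells of 1 sample. The counting interval (43.2% to 63.6%) takes UMIs as independent, so no difference from microglia is read from it. The 4 cells held 17452, 19706, 18098 and 19096 UMIs, above the median of 3734 for VEC-like cells of their sample, and none was marked as a doublet.

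**Figure D4:**
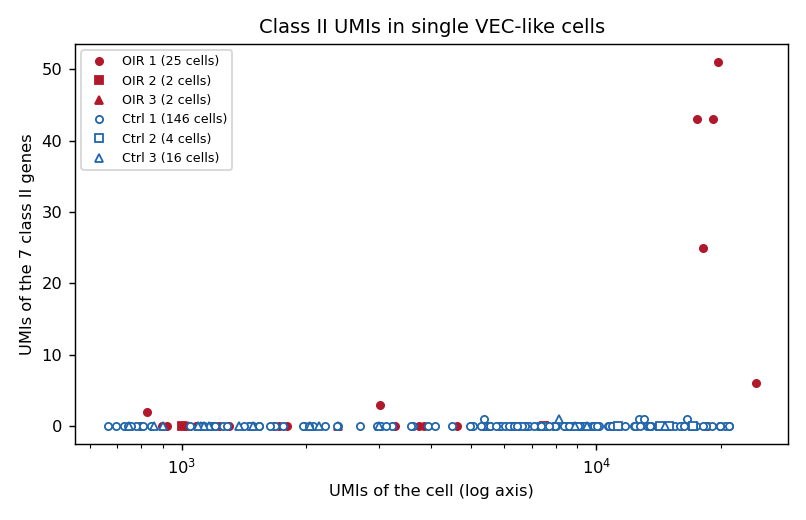
Class II UMIs per VEC-like cell (vertical axis) against all UMIs of the cell (horizontal log axis), with OIR cells in filled red and control cells in open blue. The 4 cells of OIR 1 with 25 to 51 class II UMIs stand apart from control cells of the same depth, which hold 0 or 1.

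Of the wider antigen-presentation pathway, 6 lists were read from the same edgeR fits, each gene counted once per cell type over 9 types. The lists follow known roles but were chosen with earlier results of these data known, so their counts are descriptions. Genes were called when their log2 fold change lay beyond 0.25 in either direction and edgeR's quasi-likelihood test put the adjusted p under 0.05. In these fits, 2.74% of genes were called in either direction in Müller glia, 0.868% in cone bipolar, 2.42% in rod bipolar, 2.6% in rod, 1.26% in cone, 0.324% in microglia, 0.315% in VEC, 0.0529% in amacrine and 0.0567% in RPE cells. Class I presentation, the sister pathway that shows internal peptides, had 2 of 36 gene and type pairs called higher and 0 lower in OIR. Both lay in rod bipolar cells, where 3 class I genes were tested and 1.26% of all genes were called higher. The lists of class II peptide processing (44 pairs), class II promoter factors (39), the interferon gamma pathway (37), costimulation and checkpoint (1) and other class II chains (1) had 0 called. At an unadjusted p under 0.05, edgeR gave 3, 2, 4, 0 and 1 of these pairs, and DESeq2 called 1, Nfya in rods. For class I, edgeR gave 9 of the 36 pairs at that unadjusted p, all higher in OIR. They lay in rod bipolar and cone bipolar cells, Müller glia and microglia. Without the filter on low counts, 10 class I pairs were called in these same types, all higher.

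The class I genes called were H2-K1 and H2-D1, the heavy chains of the classical class I molecules. In rod bipolar-like cells, H2-K1 stood at 30.2, 20.8 and 8.82 CPM in OIR 1, 2 and 3 and at 4.95, 2.33 and 5.06 CPM in controls. All OIR samples lay above all controls, and the log2 fold change was 2.24 ± 0.43 (SE; edgeR adjusted p = 0.0127). H2-D1 stood at 47.7, 34.0 and 31.9 CPM in OIR and at 18.0, 10.9 and 14.2 CPM in controls, again apart, with a log2 fold change of 1.30 ± 0.25 (edgeR adjusted p = 0.0135). Neither was called without Ctrl 2 (adjusted p of 0.0763 and 0.0786) or with Ctrl 1 as the only control (0.0904 and 0.163), and H2-K1 was not called without OIR 1 (0.0516) or OIR 2 (0.0614). Over the 12 alternatives the adjusted p ran from 1.9e-09 to 0.0904 for H2-K1 and from 2.7e-06 to 0.163 for H2-D1. H2-K1 and H2-D1 are near-copies, so reads may have been split between them.

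In cone bipolar-like cells, H2-K1 stood at 72.0, 37.2 and 38.9 CPM in OIR and at 27.5, 9.43 and 7.04 CPM in controls. The groups did not overlap, but the log2 fold change of 1.40 ± 0.38 gave an edgeR adjusted p of 0.117. With the replicate number as a block it was 1.61 and called (adjusted p = 7.0e-06), and over the 12 alternatives the adjusted p ran from 4.4e-09 to 0.472, with 3 calls. In Müller glia-like cells, H2-K1 stood at 188.3, 94.4 and 96.2 CPM in OIR and at 106.7, 111.4 and 76.1 CPM in controls, which overlapped.

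**Figure D5:**
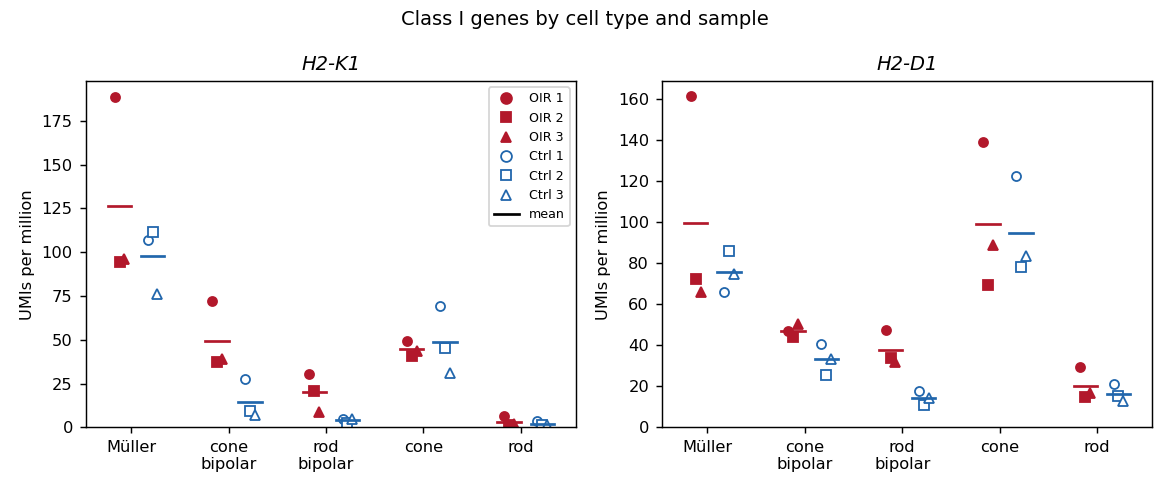
H2-K1 (left) and H2-D1 (right) CPM in each cell type (vertical axes) in OIR samples (filled red) and control samples (open blue), with group means as bars. In rod bipolar cells the OIR samples lie above the controls for both genes, with H2-K1 between 8.82 and 30.2 CPM in OIR.

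The regulators of class II and its processing enzymes did not pass the test in Müller or bipolar cells. The median log2 fold changes of the promoter factor list (Rfx5, Rfxap, Rfxank, Nfya, Nfyb, Nfyc and Creb1) were 0.037, 0.026 and 0.031 in Müller glia, cone bipolar and rod bipolar cells, beside -0.012, -0.011 and -0.0049 over all genes tested. Those of the interferon gamma pathway were 0.22, -0.016 and 0.038, those of peptide processing 0.11, -0.12 and -0.039, and those of class I presentation 0.53, 0.39 and 1.30. Of the 9 class I genes, 8, 3 and 3 were tested in these types. In both bipolar types the 3 were H2-K1, H2-D1 and Tapbp, so the class I median is there the value of H2-D1. Of the promoter factors, Nfya, a subunit of NF-Y, had the lowest p, in rods, with a log2 fold change of -0.66 ± 0.18 (edgeR adjusted p = 0.0951), which with the replicate block was called (adjusted p = 0.0274, from 0.0048 to 0.776 over the 12 alternatives). Rfx5, a subunit of RFX, stood at -0.44 ± 0.22 in cone bipolar cells (edgeR adjusted p = 0.465).

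Of the interferon gamma pathway, Irf8, a myeloid interferon regulator, stood at 0.95 ± 0.37 in cone bipolar cells (edgeR adjusted p = 0.302). In the other lists, the processing protease Ctsb stood at 0.71 ± 0.25 in microglia (edgeR adjusted p = 0.306), and March1, a ubiquitin ligase that removes class II from the surface, at 1.41 ± 0.53 in amacrine cells (edgeR adjusted p = 0.615). H2-Oa, a chain of the H2-M inhibitor H2-O, was tested in microglia and stood at 24.7, 27.8 and 20.1 CPM in OIR and 61.2, 76.9 and 58.0 CPM in controls. Its groups did not overlap, but the share of all microglia genes with groups apart is not given, so nothing is read from this. The log2 fold change of H2-Oa, -1.37 ± 0.37, had an edgeR adjusted p of 0.139. The costimulatory ligand Cd86 stood at 0.14 ± 0.24 in microglia (edgeR adjusted p = 0.928).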

How the data were processed

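Single-cell RNA was measured in 3 OIR and 3 control mouse retina samples with the Chromium Single Cell 3' kit. The authors deposited raw UMI counts per gene and barcode, without normalization, and no barcode in the files held fewer than 500 UMIs, so free RNA in empty droplets could not be measured. Per the labels the build was mm10, and the gene tables carry mouse identifiers. Barcodes with under 500 or over 5000 genes or over 20% mitochondrial counts were removed. Seurat 5.3.0 in R 4.3.3 integrated the groups and clustered the cells (2000 variable genes, 15 dimensions, 20 neighbours, resolution 0.5), and clusters were named from marker lists. Of the 7 members, 6 were among the variable genes used for clustering, so an alternative took them and the listed genes out. The names of 2 clusters were set by hand after their leading genes were seen: the leukocyte cluster, and 16 cells with cone and rod bipolar markers that were left unnamed. Doublets were kept, and Scrublet in scanpy 1.11.5 removed 2016 cells in an alternative.

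Counts were summed per sample and cell type, and CPM was taken of that sum. Sums of VEC-like cells, and of each type with 10 or more cells per sample, were compared with edgeR 4.0.16 (TMM, filterByExpr, glmQLFTest, Benjamini-Hochberg adjustment over all genes of the type, no covariate), and the test was tested on simulated data. DESeq2 1.42.0 was an alternative. Binomial and Poisson intervals and exact permutation tests used SciPy 1.17.1 and Python 3.11.15.

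The members and lists were chosen with earlier results of these data known. Named in the text are all 7 members, list genes that were called, otherwise the 2 of lowest p in a list, and the 10 genes most correlated with the summed members. One gene that this rule names is counted with its list but not reported here. Of the list genes, H2-Ea, H2-Ea-ps, Ifi30 and Marchf1 had no row under these symbols. Samples with the same replicate number deviated together in sums over all cells (correlations of 0.674, 0.294 and 0.551 over genes). The number was therefore used as a block in an alternative fit, although the labels do not state that it pairs the samples. Within Müller glia, cone bipolar and rod bipolar sums the correlations were between -0.025 and 0.323. The fit without the block is the one reported, and alternatives are given at the end.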

Additional observations from a re-analysis of the deposited data

Results flagged for a closer look

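H2-Ab1 was also counted in barcodes removed for holding over 5000 genes, which no comparison above used. In these it stood at 22.5, 8.34 and 9.39 CPM in OIR 1, 2 and 3 and at 2.31, 4.95 and 0 CPM in the controls. This set is listed because its lowest OIR sample lay above its highest control, and the share of all genes that did so there is not given. Positive barcodes made 30.5%, 10.7% and 13.2% of them in OIR and 6.93%, 14.6% and 0% in controls, where the groups overlapped. The cell types of these barcodes were not named, and Ctrl 3 had 10 of them. In the barcodes removed for under 500 genes or over 20% mitochondrial counts, H2-Ab1 overlapped between the groups. It stood there at 7.14, 4.10 and 2.77 CPM in OIR and at 0.322, 3.58 and 1.235 CPM in controls.

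Class II UMIs were counted in removed barcodes that held all 9 VEC markers as well. OIR 1 had 16 such barcodes with 181 class II UMIs, and 3 of them held 10 or more, with 171, 276 and 460 Cldn5 UMIs. OIR 2 and OIR 3 had 1 and 2 such barcodes with 0 and 1 class II UMIs, and Ctrl 1 had 47 with 4. These barcodes held up to 125971 UMIs, and whether they held more than 1 cell was not tested.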

How the results depend on the processing

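No difference larger than its SD, of the 7 genes summed or of H2-Ab1, changed sign under any alternative, but several moved by more than the spread between samples. For H2-Ab1 the log2 difference of 1.90 in Müller glia became 1.29 with cells thinned to 1000 UMIs and 0.96 with a pseudocount of 10. That of 3.53 in cone bipolar cells became 4.82, 1.74 and, with the male libraries only (an alternative chosen after seeing the data), 4.55. That of 3.56 in rod bipolar cells became 2.50 when thinned and 1.26 with a pseudocount of 10. Leaving out each sample in turn gave 1.64 to 2.15, 3.02 to 3.83 and 3.06 to 3.84. Leiden clustering, clustering without the listed genes and a 10% mitochondrial limit stayed within 1 SD. So did removal of doublets and of cells with leukocyte or microglia marker UMIs. The replicate block, with 1 sample of each group per block, cannot change a difference of group means, so it is no check of these levels. For the 7 genes summed, 1.51 in Müller glia became 1.10 (thinned) and 0.88 (pseudocount of 10), 2.87 in cone bipolar cells 4.70, 1.63 and 3.44 (male libraries), 2.12 in rod bipolar cells 1.01 (pseudocount of 10), 0.81 in rods 0.31 and 0.16, -0.16 in RPE -1.93 (thinned), and 0.55 in amacrine cells 3.45 (thinned) and 2.17 (male libraries). In VEC-like cells 1.12 ranged from -2.12 to 2.73 when samples were left out, the former without OIR 1. The differences in RPE, amacrine, cone and microglia cells, each smaller than its SD between samples, also changed sign under some alternatives.

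The microglia share difference of -0.0758 points became 0.272 with Leiden clustering. There 625 cells were microglia-like, against 244 above, and no leukocyte cluster was set apart, so these values count unlike sets of cells. The difference became 0.0635, 0.0774 and 0.159 without OIR 2, OIR 3 or Ctrl 1 (range -0.368 to 0.159 with a sample left out). As a share of cells outside rods it was -0.873 points (exact permutation test, p = 0.3). Genes called higher and lower over 9 types numbered 633 and 437, 1650 and 1192 without a filter, 1676 and 1491 with the replicate block, 343 and 300 with male libraries and 791 and 717 with DESeq2, and 240 to 1162 and 128 to 1107 with a sample left out. Pathway list genes called higher and lower numbered 2 and 0, 12 and 2 without a filter, 3 and 2 with the replicate block, 2 and 1 with DESeq2, 1 and 0 with male libraries, and 0 to 5 and 0 to 1 with a sample left out. Among the list genes named in the text, the replicate block changed no call other than those given above. The causes were not tested. Depth limits Ciita, H2-Aa and H2-Eb1 outside immune cells, where a count of 0 in a sample allows up to 3 UMIs.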

Other observations

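Among all genes, those whose level ran most closely with the 7 class II genes summed, over 68 sums of a sample and named cell type, were Limd2 (Pearson r = 0.852), Epsti1 (0.835), Capza2, Grn, Slfn2, Ifi27l2a, Olfml3, Fau, Unc93b1 and Fyb (0.797). Over the 56 sums without immune clusters they were Tradd (r = 0.682), Ftl1-ps1, H1fx, Nt5dc2, Src, Cdr2l, Emc10, Limd2, Neo1 and Fuca1 (0.620). Limd2 was in both lists. The sums share libraries and differ in depth, so these values are descriptions.

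Red cell markers were lower in OIR than in controls in cone bipolar cells, at 2.56 to 10.3 against 16.3 to 76.7 CPM, and in rod bipolar cells, at 0.679 to 7.98 CPM, below every control. Values for the other cell types are not given here, so this difference is not read as particular to bipolar cells. The part of red cell marker RNA in the H2-Ab1 difference was not tested.

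In the leukocyte cluster, class II levels differed widely between samples. The 7 genes summed stood at 338, 587 and 441 CPM in OIR 1, 2 and 3 and at 781, 288 and 2428 CPM in controls, and Cd74 made 256 of the 411 control UMIs.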
